A study of Homo sapiens with 18 samples.

Results

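The genes described here are 8 members of the ATF4 and CHOP arm of the unfolded protein response: the transcription factors ATF4, ATF5, DDIT3 (CHOP), CEBPB and CEBPG, and the target genes TRIB3, CHAC1 and NUPR1. They were chosen by symbol from a table of 25435 rows of RNA-Seq counts, and all 8 have a row and passed the filter on low counts in each comparison. The cells were HEK293doxERN2, a human embryonic kidney line that carries a Flag-tagged ERN2 (IRE1 beta) transgene under a doxycycline-inducible promoter. Doxycycline was given over 24 hours at 10 or 100 ng/mL, or left out, and each of these 3 conditions received DMSO vehicle or thapsigargin (200 nM, 3 hours), which gives 6 groups of 3 libraries and 18 libraries in all. All groups share the same engineered line, and the counts of ERN2 add the transgene to the gene of the line itself. The labels do not say whether the 3 libraries of a group came from separate cultures, so the p-values measure the spread between libraries, which may be technical.

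Thapsigargin blocks the pump that refills the endoplasmic reticulum with calcium and so disturbs protein folding there. In the general scheme of this response, the kinase PERK phosphorylates the translation factor eIF2 alpha, most translation slows, and the ATF4 message is translated more. ATF4 pairs with C/EBP family proteins and raises transcription of amino acid, antioxidant and cell death genes, among them DDIT3, whose protein CHOP raises further targets. ERN2 is a paralog of the stress sensor IRE1 alpha found in mucosal epithelia.

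A site at which ATF4 and C/EBP proteins bind as pairs carries letters close to TGATGNAA. Promoter windows of 300 bases, from 250 bases before to 50 after a RefSeq start site, matched 7 of the 8 genes, and NUPR1 had none. The letters were searched on both strands and lie in 3.62% of all 35116 windows. CHAC1 and CEBPG held a match, and DDIT3 and ATF5 held an AP-1 element, TGANTCA, which lies in 7.71% of all windows. The ER stress response element, searched as CCAAT and CCACG held apart by 9 other letters, lies in 0.0769% of all windows. It had no exact match among these genes. The DDIT3 stretch below holds CCAAT, then 9 letters, then CCACT, which differs from the searched letters only in the last. Sites that differ by a letter were not searched for. The stretches below are from RefSeq on GRCh38.p14 and are shown because they hold the matches, which are in capitals. DDIT3 lies at chr12:57520518-57520764 on the minus strand, CEBPG at chr19:33373896-33374112 on the plus strand, and CHAC1 at chr15:40953251-40953280 on the plus strand.
DDIT3: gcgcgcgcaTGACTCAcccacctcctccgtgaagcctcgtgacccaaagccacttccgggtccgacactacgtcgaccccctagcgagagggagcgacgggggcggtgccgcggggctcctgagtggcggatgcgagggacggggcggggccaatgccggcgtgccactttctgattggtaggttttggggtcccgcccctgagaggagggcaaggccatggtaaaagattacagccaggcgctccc
CEBPG: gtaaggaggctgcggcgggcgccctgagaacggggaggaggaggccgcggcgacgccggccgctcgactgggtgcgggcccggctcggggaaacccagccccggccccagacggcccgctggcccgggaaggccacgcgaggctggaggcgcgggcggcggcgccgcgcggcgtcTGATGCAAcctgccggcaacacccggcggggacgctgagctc
CHAC1: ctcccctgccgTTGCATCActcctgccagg
The CHAC1 match reads on the minus strand and starts at position -209 from the start site of its window, and its stretch falls inside an annotated exon. The CEBPG match starts at position -42 and the DDIT3 match at -241, counted the same way. A match is a description of letters and not evidence of binding.

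Library totals ran from 14876416 to 24652240 counts. ERN2 followed the labels: its level in CPM (counts scaled to the size of the library) averaged 7.79 ± 1.27 (SD, n = 3) in uninduced vehicle libraries, 35.2 ± 18.1 after the dose of 10 ng/mL and 270.0 ± 34.1 after that of 100 ng/mL. With thapsigargin the 3 means were 12.2 ± 1.92, 65.8 ± 41.0 and 207 ± 56.0 CPM. The libraries had 6 of 6 HEK293 markers above a median of 1 CPM, summing to between 1427 and 2477 CPM, and 1 of 10 colon epithelium markers (CDX2), summing to between 4.18 and 10.0 CPM. This was checked because the extraction label names colon crypt cells. The 3 libraries of the group given 100 ng/mL and thapsigargin differed most from each other, with replicate 1 furthest from its partners. Replicate 1 of the group given 100 ng/mL and thapsigargin differed from the mean of its 2 partners by over 2-fold in 6.32% of genes, against 5.45% and 3.89% for those partners and between 1.20% and 3.18% for the 15 libraries of the other groups. Its ERN2 level was 272 CPM against 175 CPM in each partner. Counts and calls that rest on it are given with and without it.

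ATF4, the factor at the head of this arm, had the highest level of the 8 genes per length of transcript. Without doxycycline it was at 322, 292 and 374 CPM in vehicle and at 667, 845 and 878 CPM with thapsigargin. At 10 ng/mL the values were 366, 442 and 433 CPM in vehicle and 771, 981 and 1017 CPM with thapsigargin, and at 100 ng/mL they were 370, 460 and 378 CPM and 879, 722 and 615 CPM. Every library with thapsigargin lay above every vehicle library at the same dose, as did 20%, 15.6% and 10.7% of all genes tested at 0, 10 and 100 ng/mL. Within either treatment, neighbouring doses overlapped in the order of levels. Per kb of its principal transcript in GENCODE 29, ATF4 averaged 163 CPM in vehicle and 395 with thapsigargin without doxycycline, against 10.6 and 165 for DDIT3 and 2.09 and 49.9 for CHAC1. ATF4 has 4 named pseudogenes, so reads shared with them make its level uncertain.

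DDIT3 encodes CHOP, a C/EBP family protein linked to death of stressed cells. In vehicle it was at 11.5, 9.17 and 9.31 CPM without doxycycline, at 13.2, 13.9 and 12.7 CPM at 10 ng/mL and at 17.7, 16.5 and 14.9 CPM at 100 ng/mL. These 3 vehicle groups did not overlap, and the level was higher at each higher dose. Of all genes tested, 14.4% lay above without overlap from 0 to 10 ng/mL and 10% from 10 to 100 ng/mL. With thapsigargin it was at 153, 156 and 155 CPM, then 156, 156 and 160 CPM, then 113, 81.2 and 90.5 CPM. The first 2 of these groups overlapped. All 3 libraries at 100 ng/mL lay below them, as did 20.4% of all genes tested against 0 ng/mL and 18.6% against 10 ng/mL. The gene lies on chromosome 12 from 57516588 to 57521737 on the minus strand (GRCh38) and 894 of its exon bases overlap MARS on the opposite strand. Whether the counting used strand is not given in the sources used here, so reads of these 2 genes there may not have been told apart. Of the DDIT3 exon bases, 129 overlap MBD6 on the opposite strand. Another gene, AC022506.1, overlaps 105 of them on the same strand, where counting by strand would not separate the reads.

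CHAC1, which encodes an enzyme that breaks down glutathione, had a like order of groups. In vehicle its values were 3.70, 3.58 and 2.51 CPM without doxycycline, 5.40, 5.11 and 4.44 CPM at 10 ng/mL and 7.20, 8.40 and 6.22 CPM at 100 ng/mL, again with no overlap between doses. Of all genes tested, 14.4% lay above without overlap from 0 to 10 ng/mL and 10% from 10 to 100 ng/mL. With thapsigargin the CHAC1 values were 71.2, 78.2 and 84.2 CPM, then 84.1, 87.9 and 106 CPM, then 73.7, 47.4 and 55.8 CPM. The group at 100 ng/mL had the lowest mean of the 3, and its replicate 1 overlapped the group without doxycycline.

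CEBPB, a C/EBP protein that pairs with ATF4 and CHOP, was at 17.7, 13.1 and 13.4 CPM in vehicle and 67.7, 88.8 and 79.6 CPM with thapsigargin without doxycycline. At 10 ng/mL it was at 16.3, 17.5 and 16.2 CPM and 69.9, 94.3 and 86.2 CPM. At 100 ng/mL it was at 19.7, 26.0 and 19.5 CPM and 64.7, 60.0 and 43.0 CPM. With thapsigargin the 3 libraries at 100 ng/mL lay below those of both other doses. Of all genes tested, 20.4% lay below without overlap against 0 ng/mL and 18.6% against 10 ng/mL. The antisense gene CEBPB-AS1 overlaps 765 exon bases of CEBPB on the opposite strand, so reads there may not have been told apart.

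CEBPG, another C/EBP partner of ATF4, kept to a narrow range within each treatment. Its vehicle libraries lay between 93.9 and 123 CPM and its thapsigargin libraries between 201 and 280 CPM. The 3 thapsigargin groups averaged 241 ± 34.2, 238 ± 34.8 and 239 ± 32.4 CPM (SD, n = 3) from the lowest to the highest dose and overlapped.

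TRIB3 encodes a pseudokinase that binds ATF4 and CHOP and dampens them. Its vehicle values were 16.8, 15.1 and 15.8 CPM without doxycycline, 17.1, 22.7 and 22.5 CPM at 10 ng/mL and 24.9, 30.5 and 20.1 CPM at 100 ng/mL. With thapsigargin they were 70.5, 167 and 75.4 CPM, then 73.6, 167 and 79.9 CPM, then 58.5, 61.9 and 34.4 CPM. Replicate 2 was over double either of its partners in the first 2 of these groups. All 3 libraries at 100 ng/mL lay below those groups, as did 20.4% of all genes tested against 0 ng/mL and 18.6% against 10 ng/mL.

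ATF5, an ATF4-related factor linked to mitochondrial stress, and NUPR1, a small stress-induced nuclear protein, differed from the others. ATF5 was at 95.5, 104 and 101 CPM in vehicle and 70.7, 93.7 and 82.0 CPM with thapsigargin without doxycycline, so its thapsigargin libraries were the lower ones, as were those of 20% of all genes tested. At 100 ng/mL it was at 109, 137 and 117 CPM in vehicle and 105, 167 and 120 CPM with thapsigargin, which overlapped. The whole gene lies within AC011452.1 on the opposite strand, which covers all 5234 of its bases, so its counts are uncertain. NUPR1 had the lowest level per length of transcript, with 16 to 90 counts per library. Its group means ran from 1.11 ± 0.428 CPM in vehicle without doxycycline to 3.82 ± 2.22 CPM with thapsigargin at 100 ng/mL (SD, n = 3). Ranked by mean, each of its groups overlapped the next in order. Every NUPR1 library with thapsigargin lay above every vehicle library at 0 and 10 ng/mL. Of all genes tested, 20% and 15.6% lay above in this way at these doses. At 100 ng/mL the NUPR1 libraries overlapped.

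**Figure D1:**
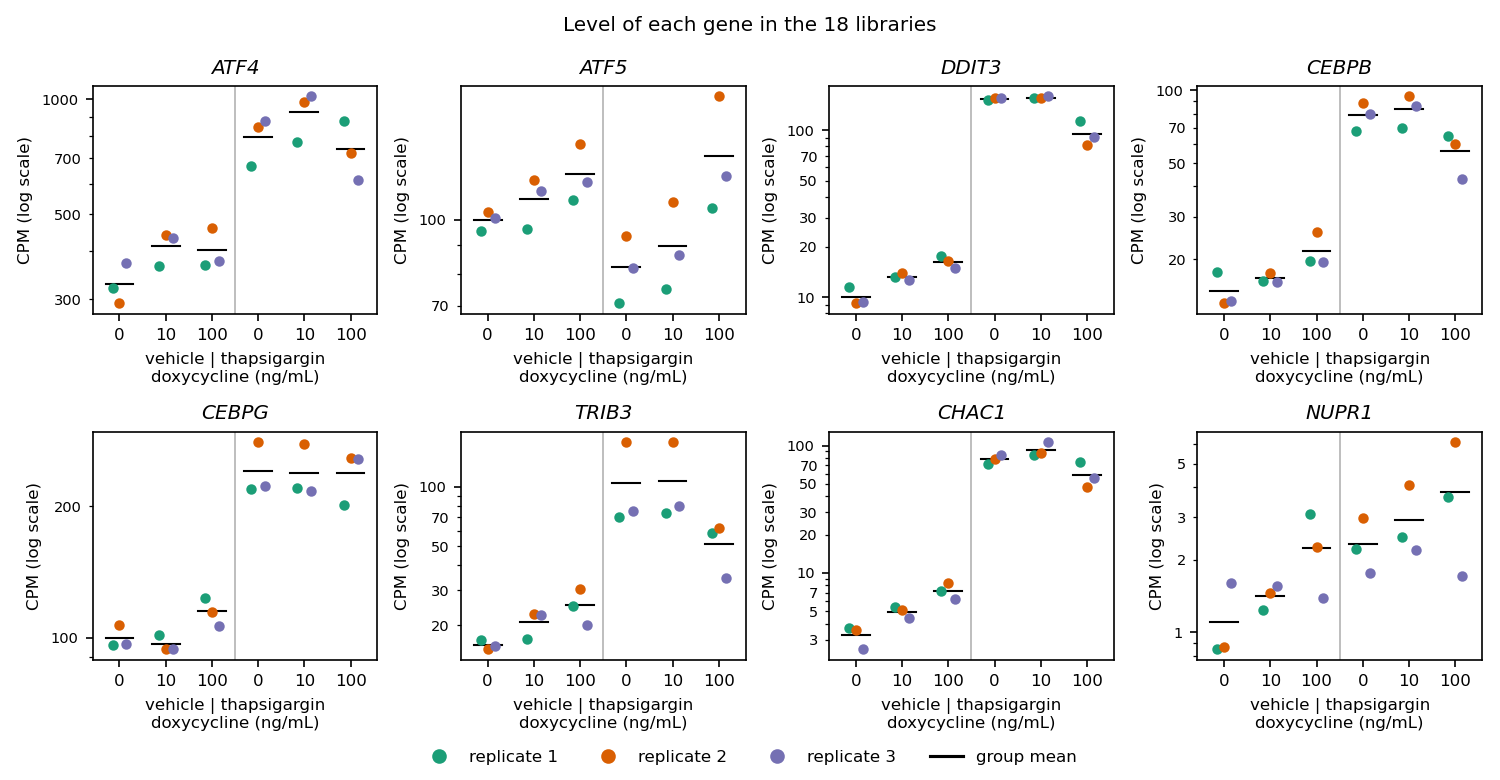
Level of each of the 8 genes in the 18 libraries, in CPM on a log axis, by doxycycline dose with vehicle on the left and thapsigargin on the right of each panel. Points are libraries coloured by replicate number and bars are group means. DDIT3 averaged 155, 157 and 94.9 CPM with thapsigargin at 0, 10 and 100 ng/mL.

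The first comparison asks what thapsigargin did to these genes where ERN2 was not induced. Of the 8 genes, 6 rose (edgeR quasi-likelihood test, Benjamini-Hochberg adjusted p under 0.01), where 6.45% of the 14397 genes tested rose and 4.74% fell. CHAC1 rose by 4.58 on the log2 scale (SE 0.162, adjusted p = 1.43e-09), which is 23.9-fold. DDIT3 rose by 3.96 (SE 0.127, adjusted p = 6.09e-10), which is 15.6-fold. TRIB3 rose 6.62-fold, CEBPB 5.36-fold, and ATF4 and CEBPG 2.43-fold each, with adjusted p from 4.01e-07 to 2.67e-05. The median over the 8 genes was 1.85 on the log2 scale, against -0.01 over all genes tested. NUPR1 had a log2 fold change of 1.09 (SE 0.325, adjusted p = 0.0282) and ATF5 one of -0.27 (SE 0.118, adjusted p = 0.113). Neither passed the threshold. The 6 calls held when any 1 of the 6 libraries was left out.

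At 10 ng/mL the same 6 genes rose with thapsigargin, where 1.16% of 14607 genes tested rose. The log2 fold changes were 4.21 for CHAC1 (SE 0.159), 3.56 for DDIT3 (SE 0.118), 2.36 for TRIB3 (SE 0.294), 2.32 for CEBPB (SE 0.145), 1.30 for CEBPG (SE 0.128) and 1.15 for ATF4 (SE 0.138). Their adjusted p ran from 1.77e-07 to 0.00183. NUPR1 was at 1.04 (adjusted p = 0.0678) and ATF5 at -0.29 (adjusted p = 0.27). Without replicate 2 of the vehicle libraries 3 calls remained, where 0.168% of all genes tested rose. ATF4 (adjusted p = 0.0205), CEBPG (0.0124) and TRIB3 (0.0275) then missed the threshold. Without replicate 2 of the thapsigargin libraries ATF4 also missed it.

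At 100 ng/mL 3 of the 8 genes rose with thapsigargin, where 0.18% of 14427 genes tested rose and 0.201% passed in either direction. DDIT3 rose by 2.56 on the log2 scale (SE 0.171, adjusted p = 9.72e-05), CHAC1 by 3.04 (SE 0.210, adjusted p = 9.74e-05) and CEBPG by 1.08 (SE 0.140, adjusted p = 0.00889). The log2 fold changes of CEBPB (1.39, adjusted p = 0.0107), ATF4 (0.90, adjusted p = 0.0202) and TRIB3 (1.06, adjusted p = 0.0446) missed the threshold. All 3 genes had every thapsigargin library above every vehicle library, as had 10.7% of all genes tested. NUPR1 was at 0.77 and ATF5 at 0.14 (adjusted p = 0.276 and 0.65), with overlapping libraries. Without replicate 1 of the thapsigargin libraries, 6 of the 8 genes rose, where 9.78% of 14575 genes tested rose, and 2568 genes passed the test in all, against 29 with it. The log2 fold changes were then 2.39 for DDIT3, 2.82 for CHAC1 and 0.94 for TRIB3. The call for CEBPG was lost when any 1 of the other 5 libraries was left out.

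**Figure D2:**
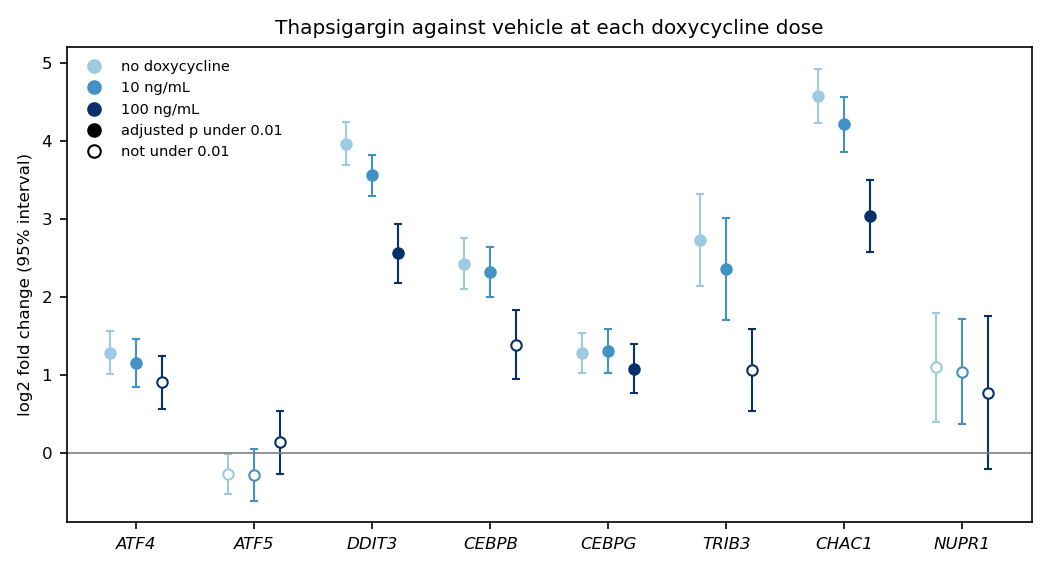
Log2 fold change of each gene with thapsigargin against vehicle at 0, 10 and 100 ng/mL doxycycline, with 95% intervals, filled where the adjusted p was under 0.01. DDIT3 went from 3.96 to 3.56 and 2.56, CHAC1 from 4.58 to 4.21 and 3.04, and CEBPG stayed between 1.08 and 1.30.

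The next question was whether the response to thapsigargin itself differed with the dose, tested as the interaction of dose and treatment over 12 libraries. Between 100 ng/mL and no doxycycline, the difference in log2 response was -1.32 for DDIT3 (SE 0.191, adjusted p = 0.0101), -1.46 for CHAC1 (SE 0.257, adjusted p = 0.0238), -1.59 for TRIB3 (SE 0.429, adjusted p = 0.0752) and -0.95 for CEBPB (SE 0.256, adjusted p = 0.0744). None of the 8 genes passed the threshold of 0.01, where 0.0406% of 14768 genes did. At an unadjusted p under 0.05 there were 4 of the 8 genes, where 24.7% of all genes tested were. DESeq2 called those 4 genes at an adjusted p under 0.01, among 341 genes in all (2.94% of those tested). For DDIT3 the adjusted p under all alternatives ran from 1.4e-07 to 0.045, and for CHAC1 from 2.56e-05 to 0.0795. Without replicate 1 of the thapsigargin libraries at 100 ng/mL, the difference was -1.52 for DDIT3 (adjusted p = 0.000449), -1.70 for CHAC1 (adjusted p = 0.00094) and -1.13 for CEBPB (adjusted p = 0.0072), and these 3 passed, where 8.6% of 14946 genes tested did. ATF4 differed by -0.30 (95% interval -0.74 to 0.14), CEBPG by -0.12 (-0.52 to 0.29), NUPR1 by -0.24 (-1.58 to 1.10) and ATF5 by 0.50 (-0.0027 to 0.998).

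Between 10 ng/mL and no doxycycline, edgeR called 0 of 14857 genes (0%) for a different response, with 664 at an unadjusted p under 0.05, and DESeq2 called 3. The difference in log2 response was -0.39 for DDIT3 (95% interval -0.70 to -0.09, adjusted p = 0.779), the 1 gene of the 8 with an unadjusted p under 0.05. It was -0.35 for CHAC1 (-0.81 to 0.10), -0.36 for TRIB3 (-1.34 to 0.63) and -0.12 for ATF4 (-0.53 to 0.29).

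The doses of doxycycline were also compared in the vehicle libraries, without thapsigargin. Doxycycline induces ERN2 in this line, and no library came from cells without the transgene. Effects of the drug and of ERN2 therefore cannot be told apart in any comparison of doses. At 100 against 0 ng/mL, CHAC1 rose by 1.11 on the log2 scale (SE 0.206, adjusted p = 0.00246), which is 2.16-fold, and DDIT3 by 0.67 (SE 0.150, adjusted p = 0.0092), which is 1.59-fold. These were 2 of the 8 genes, where 0.838% of 14444 genes tested rose and 7.49% fell. TRIB3 had a log2 fold change of 0.63 (adjusted p = 0.0205) and CEBPB one of 0.52 (adjusted p = 0.0629), both with no overlap between groups, as had ATF5 at 0.23 (adjusted p = 0.205). Of all genes tested, 19.7% lay above without overlap in this comparison, against these 5 of 8. ATF4 was at 0.25 (95% interval -0.02 to 0.52) and CEBPG at 0.16 (-0.07 to 0.39). The call for DDIT3 held in 1 of 6 fits that left out a library, with adjusted p from 0.0083 to 0.0482. It was lost without any 1 of the 3 uninduced libraries and without replicate 1 or 3 at 100 ng/mL, and that for CHAC1 was lost only without replicate 3 of the uninduced libraries (adjusted p = 0.0119).

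At 10 against 0 ng/mL in vehicle, edgeR called 0 of the 8 genes, where 0.193% of 14497 genes tested passed. Of the 8 genes, 4 had an unadjusted p under 0.05, where 30.5% of all genes tested had, and DESeq2 called 0 of the 8 and 381 genes in all. The log2 fold changes were 0.60 for CHAC1 (95% interval 0.14 to 1.06), 0.41 for DDIT3 (0.08 to 0.74) and 0.38 for TRIB3 (0.06 to 0.70), and all 3 genes had every library at 10 ng/mL above every uninduced library, where 14.4% of all genes tested had. Without replicate 1 of the libraries at 10 ng/mL, ATF4 was called (adjusted p = 0.00934), and 2743 genes in all against 28 (18.8% against 0.193% of those tested). At 100 against 10 ng/mL in vehicle edgeR again called 0 of the 8, where 2.45% of 14549 genes tested passed, with 2 of the 8 at an unadjusted p under 0.05, where 16.1% of all genes tested were, and 0 of the 8 called by DESeq2. CHAC1 was then at 0.52 (0.12 to 0.93) and DDIT3 at 0.28 (-0.03 to 0.58).

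Among thapsigargin libraries the same doses gave the opposite sign for several genes. At 100 against 0 ng/mL DDIT3 fell by 0.71 on the log2 scale (SE 0.149, adjusted p = 0.00506), to 0.612 of its uninduced level, the 1 gene of the 8 that passed, where 9% of 14358 genes tested fell. TRIB3 was at -1.02 (SE 0.319, adjusted p = 0.0396) and CEBPB at -0.49 (SE 0.185, adjusted p = 0.0765), each with no overlap between groups, where 20.4% of all genes tested lay below without overlap. CHAC1 was at -0.40 (SE 0.172, adjusted p = 0.115) with overlap. ATF5 was at 0.67 (SE 0.192, adjusted p = 0.0269), with every library at 100 ng/mL above the uninduced ones, as had 16.1% of all genes tested. ATF4 was at -0.11 (95% interval -0.45 to 0.24) and CEBPG at -0.02 (-0.36 to 0.32). Without replicate 1 at 100 ng/mL, 5 of the 8 genes passed: DDIT3 (-0.84), TRIB3 (-1.11), CEBPB (-0.60) and CHAC1 (-0.58) were lower and ATF5 (0.81) higher. In that fit 13.7% of 14527 genes tested fell and 13.5% rose. Without any 1 of the other 5 libraries the call for DDIT3 was lost, with adjusted p up to 0.0457, and its log2 fold change over all 6 such fits stayed between -0.84 and -0.61. Without replicate 2 of the uninduced libraries TRIB3 was at -0.49.

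At 100 against 10 ng/mL with thapsigargin DDIT3 fell by 0.72 (SE 0.157, adjusted p = 0.00945), where 5.32% of 14493 genes tested fell. CHAC1 was at -0.65 (adjusted p = 0.0355), TRIB3 at -1.05 (adjusted p = 0.0373) and CEBPB at -0.57 (adjusted p = 0.0609), each below without overlap, where 18.6% of all genes tested were. Without replicate 1 at 100 ng/mL, DDIT3 (-0.84) and CHAC1 (-0.81) passed, where 8.9% of 14705 genes tested fell, and without any 1 of the other 5 libraries none of the 8 did. Without replicate 2 at 10 ng/mL TRIB3 was at -0.53. The comparisons at 100 ng/mL with thapsigargin share those 3 libraries, so they are not independent of each other.

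At 10 against 0 ng/mL with thapsigargin edgeR called 0 of 14509 genes (0%), with 612 at an unadjusted p under 0.05, of which 0 among the 8, and DESeq2 called 39 genes and 0 of the 8. DDIT3 differed by 0.01 (95% interval -0.21 to 0.22), CHAC1 by 0.24 (-0.04 to 0.52) and TRIB3 by 0.02 (-0.81 to 0.85). In this comparison libraries with the same replicate number deviated together. With the number as a block, 564 genes passed (3.89% of those tested) and ATF4 did among the 8, at a log2 fold change of 0.20 (adjusted p = 0.00596).

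**Figure D3:**
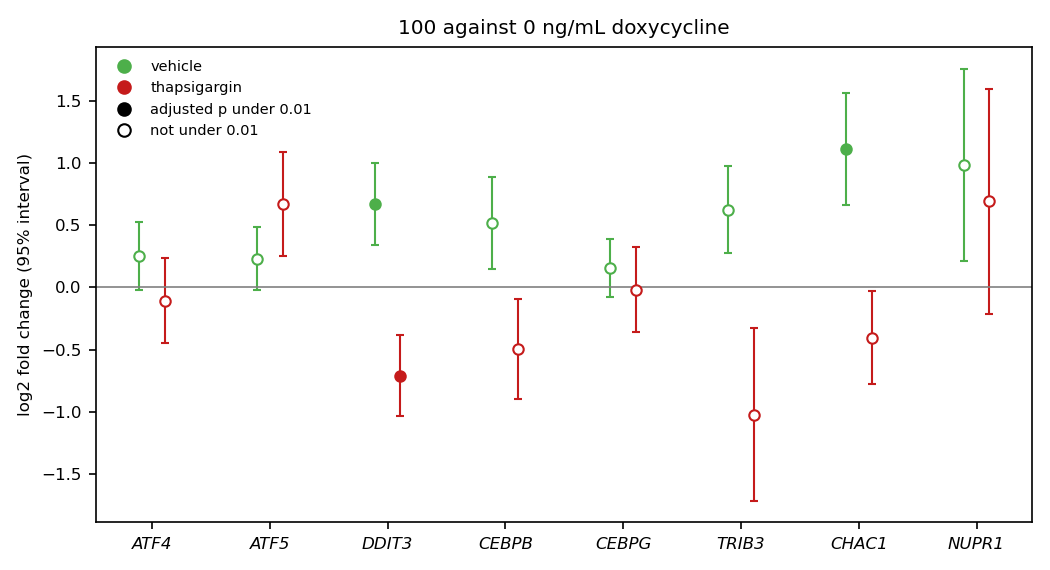
Log2 fold change of each gene at 100 against 0 ng/mL doxycycline, in vehicle and with thapsigargin, with 95% intervals, filled where the adjusted p was under 0.01. DDIT3 was at 0.67 in vehicle and -0.71 with thapsigargin, and CHAC1 at 1.11 and -0.40.

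The other genes of the pathway were followed in 4 lists of 55 genes in all. With thapsigargin and no doxycycline 29 of the 52 tested rose and 2 fell, where 6.45% of all genes tested rose and 4.74% fell. The amino acid and tRNA charging genes, which ATF4 is known to raise, had 19 of 23 higher (median log2 fold change 1.07), and SLC6A9, a glycine transporter, rose by 2.92 (SE 0.286). Of 16 stress effector genes tested 5 rose, with HERPUD1, which acts in ER-associated degradation, at 4.08 (SE 0.125) and STC2, a secreted glycoprotein, at 2.88 (SE 0.144). The other bZIP partners and regulators had 3 of 7 higher and 1 lower (BTRC, a ubiquitin ligase subunit, at -0.50). The eIF2 alpha kinases and phosphatase subunits had 2 of 6 higher and 1 lower (EIF2AK2, the kinase PKR, at -0.73).

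At 10 ng/mL 21 of 53 list genes rose with thapsigargin and 0 fell, where 1.16% of all genes tested rose. Without replicate 2 of the vehicle libraries 7 list genes rose, where 0.168% of all genes tested rose. HERPUD1 was at 3.72, SLC6A9 at 2.89 and STC2 at 2.81. At 100 ng/mL 9 of 53 rose and 0 fell, where 0.18% of all genes tested rose, with HERPUD1 at 2.79, SLC7A11, the cystine transporter, at 1.98 and SLC6A9 at 1.93. Without replicate 1 of the thapsigargin libraries at that dose 23 list genes rose and 2 fell. Of all genes tested in that fit, 9.78% rose and 7.84% fell. Leaving out any 1 of the other 5 libraries left between 1 and 5 list genes, the lowest without replicate 3 in vehicle or replicate 2 with thapsigargin, and the replicate number as a block left 1. Of all genes tested, between 0.0273% and 0.0821% passed in the former fits and 0.0277% with the block. HERPUD1 was the 1 list gene whose response at 100 ng/mL differed from that without doxycycline, by -1.21 (SE 0.155, adjusted p = 0.00741). This call was lost with the replicate number as a block (adjusted p = 0.0178). Of 12 fits with 1 library omitted, 8 lost it, with adjusted p from 0.0134 to 0.0342: those without any 1 of the vehicle libraries or without replicate 2 or 3 of the thapsigargin libraries at 100 ng/mL. Its difference over the 12 fits stayed between -1.38 and -1.14. Without replicate 1 of the thapsigargin libraries at 100 ng/mL 11 list genes passed that test, 9 of them lower. Of all genes tested in that fit, 8.6% passed, with 5.79% higher and 2.82% lower.

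In vehicle at 100 against 0 ng/mL 3 of 53 list genes rose and 7 fell, where 0.838% of all genes tested rose and 7.49% fell. SLC3A2, a subunit of amino acid exchangers, and HERPUD1 both rose by 0.87, and PPP1R15A, the stress-induced eIF2 alpha phosphatase subunit, by 0.68. SLC7A5, which pairs with SLC3A2 to import large neutral amino acids, was at -1.55 (SE 0.134), EIF2AK1, the kinase HRI, at -1.27 (SE 0.105) and SLC1A4, a neutral amino acid transporter, at -0.90 (SE 0.116). With thapsigargin at 100 against 0 ng/mL 0 rose and 9 of 53 fell, where 9% of all genes tested fell, with SLC7A5 at -1.97, SLC1A4 at -1.74 and VLDLR, a lipoprotein receptor, at -1.29. Without replicate 1 at 100 ng/mL 14 list genes fell and 4 rose, where 13.7% of all genes tested fell and 13.5% rose. With all 6 groups in the fit 13 list genes fell and 4 rose, where 13.6% of all genes tested fell and 3.97% rose. At 100 against 10 ng/mL with thapsigargin 7 of 54 fell, where 5.32% of all genes tested fell, with SLC7A5 at -1.61, SLC1A4 at -1.22 and SLC1A5, a glutamine transporter, at -1.16. Without replicate 1 at 100 ng/mL 10 list genes fell and 2 rose, where 8.9% of all genes tested fell and 9.54% rose. Without replicate 1 at 10 ng/mL 3 list genes fell, where 1.48% of all genes tested fell. With replicate 2 of either dose left out 1 list gene fell. Without that replicate 143 of 14662 genes tested fell for the dose of 10 ng/mL and 42 of 14737 for 100 ng/mL. In vehicle at 100 against 10 ng/mL 1 of 53 fell (SLC7A5, at -1.15), where 2.43% of all genes tested fell, and the call was lost without replicate 2 at 10 ng/mL or replicate 3 at 100 ng/mL. edgeR called 0 list genes at 10 against 0 ng/mL, in vehicle (24 at an unadjusted p under 0.05) or with thapsigargin (4 at an unadjusted p under 0.05), and 0 for the interaction at 10 ng/mL (4 at an unadjusted p under 0.05). Of all genes tested, 30.5%, 4.22% and 4.47% had such an unadjusted p. DESeq2 called 2, 0 and 0 of the list genes, where 3.26%, 0.342% and 0.0202% of all genes tested passed. Without replicate 1 of the vehicle libraries at 10 ng/mL 6 list genes rose and 4 fell at that dose. Of all genes tested in that fit, 8.05% rose and 10.7% fell. With the replicate number as a block, 3 list genes fell at 10 against 0 ng/mL with thapsigargin, SLC1A4 (-0.53), SLC7A5 (-0.37) and EIF2AK1 (-0.33), where 2.53% of all genes tested fell.

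**Figure D4:**
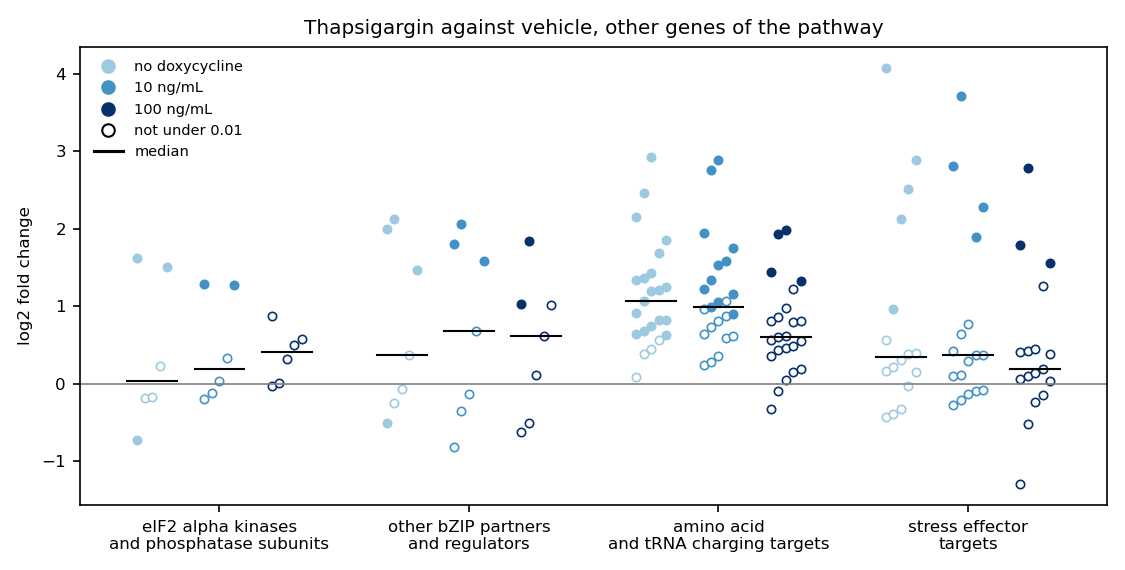
Log2 fold change with thapsigargin against vehicle of the other pathway genes tested, by list and by doxycycline dose, filled where the adjusted p was under 0.01, with the median of each list as a bar. The median of the amino acid and tRNA charging list was 1.07, 0.99 and 0.60 at 0, 10 and 100 ng/mL.

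The high TRIB3 values in replicate 2 came with other list genes. In the thapsigargin group without doxycycline TRIB3 was 1.20 higher on the log2 scale in replicate 2 than in the mean of replicates 1 and 3, and the 23 amino acid and tRNA charging genes were all higher there, with a median of 0.51. At 10 ng/mL with thapsigargin TRIB3 was 1.12 higher and 22 of the 23 were higher, with a median of 0.48. DDIT3 differed by 0.02 and -0.02 and CHAC1 by 0.02 and -0.10 in the same libraries. The other members were higher in both: NUPR1 by 0.57 and 0.78, ATF5 by 0.30 and 0.42, and CEBPG by 0.34 and 0.35. CEBPB was higher by 0.27 and 0.28 and ATF4 by 0.14 and 0.15. In each group 15 of 18 stress effector genes and 3 of 7 other bZIP partners and regulators were higher. Of the eIF2 alpha kinases and phosphatase subunits 6 and 5 of 6 were. Over all genes, 7519 and 7731 of 15023 were higher. At 100 ng/mL with thapsigargin the median of the list was 0.055 (15 of 23 higher), and in the 3 vehicle groups it lay between -0.09 and 0.09. In that thapsigargin group TRIB3 differed by 0.46, NUPR1 by 1.26, ATF5 by 0.57, CEBPB by 0.19 and CEBPG by 0.18. DDIT3 differed there by -0.32, CHAC1 by -0.44 and ATF4 by -0.03. In vehicle TRIB3 differed by -0.11, 0.21 and 0.44 at 0, 10 and 100 ng/mL. The labels give no batch for the replicate numbers. Without replicate 2 of the thapsigargin libraries TRIB3 had a log2 fold change with thapsigargin of 2.21 without doxycycline and of 1.87 at 10 ng/mL, and passed in both.

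**Figure D5:**
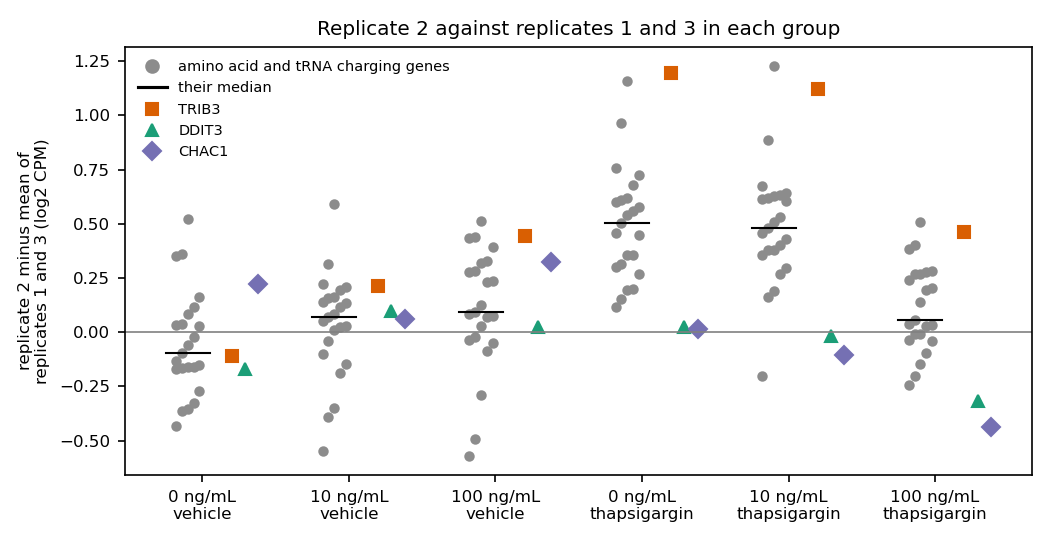
Difference in log2 CPM between replicate 2 and the mean of replicates 1 and 3 in each group, for the 23 amino acid and tRNA charging genes (points, with their median as a bar) and for TRIB3, DDIT3 and CHAC1. With thapsigargin at 0 and 10 ng/mL TRIB3 stood at 1.20 and 1.12 while DDIT3 stood at 0.02 and -0.02.

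Across the 18 libraries, which share 1 line and the same thapsigargin contrast, the genes with levels most like DDIT3 by Pearson correlation of log2 CPM, among 15022 genes compared, were HERPUD1 (0.996), CHAC1 (0.995), DNAJB5 (0.992), RCAN1 (0.990) and DDIT4 (0.988). For CHAC1 they were HERPUD1 (0.996), DDIT3 (0.995), SESN2 (0.990), DNAJB5 (0.990) and DDIT4 (0.989). Among the 8 genes the correlation of DDIT3 was 0.99 with CEBPB, 0.96 with CEBPG, 0.95 with ATF4, 0.93 with TRIB3, 0.63 with NUPR1 and -0.36 with ATF5. These values describe the libraries and were not tested.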

How the data were processed

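Reads were from stranded poly-A libraries sequenced as single ends. The authors aligned them with STAR in the VIPER pipeline, per the labels to hg38, and deposited raw counts per gene symbol without normalization. The STAR version, annotation and strand setting are not given in the sources used here. Columns were matched to libraries through the sample descriptions. No value column was left unused. The 8 genes, the pathway lists and the tests were chosen with earlier results of these data known.

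The test was the quasi-likelihood test of edgeR 4.0.16 in R 4.3.3 (glmQLFit, glmQLFTest), fitted to the groups of each comparison after filterByExpr (minimum count 10) and TMM scaling. Adjusted p are Benjamini-Hochberg values over every gene in that fit, with 0.01 as the threshold. Each SE was obtained from the log2 fold change and the square root of the F statistic. CPM are scaled over all 18 libraries, and the correlations use log2 CPM with a prior count of 2. Beside the 8 genes, the text names the 3 highest and 3 lowest pathway genes past the threshold in each comparison and the 5 genes most like DDIT3 and CHAC1. Positions and transcript lengths are from GENCODE 29 and may differ from the authors' annotation. Replicates of 1 group differed by more than sampling noise, with a chi-square of 7.09 to 61.2 per degree of freedom over all pairs.

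The main tests did not pair same-numbered libraries. Each pair's deviations from the group means correlated over 0.1 only for 10 against 0 ng/mL with thapsigargin (0.34 to 0.47). For that comparison the fit with the replicate number as a block is given beside the main test. The alternatives were DESeq2 1.42.0, RLE size factors, no filter, all 6 groups in 1 fit, the replicate block and each library left out. The script was tested on simulated data.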

Additional observations from a re-analysis of the deposited data

How the results depend on the processing

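With all libraries kept, the fold changes of the 8 genes kept direction and side of the threshold in 402 of 440 refits, passed only in the refit in 31, lost the call in 5 and changed sign in 2. The sign changed for CEBPG at 100 against 10 ng/mL with thapsigargin (-0.052 with all 6 groups in the fit) and for ATF5 in the interaction at 10 ng/mL (0.00108 with the replicate block), both near 0. The cause of the differences below was not tested.

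DESeq2 called 1101 genes for thapsigargin at 10 ng/mL (edgeR 212), 732 at 100 ng/mL (edgeR 29) with 6 of the 8 genes, 381 at 10 against 0 and 801 at 100 against 10 ng/mL in vehicle, and 39 at 10 against 0, 2331 at 100 against 0 and 1647 at 100 against 10 ng/mL with thapsigargin, the last 2 with 2 of the 8 genes each. The totals of 732, 2331 and 1647 were 5.62%, 16.2% and 12.3% of the genes tested. DESeq2 called 3 genes for the interaction at 10 ng/mL and 341 for that at 100 ng/mL (2.94% of those tested), with 4 of the 8. For thapsigargin without doxycycline it called 2335, against 1611 by edgeR.

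RLE size factors left 0 of the 8 genes at 100 against 10 ng/mL with thapsigargin, where 5.02% of all genes tested passed. They gave 14 genes (0.0948% of those tested) with 1 of the 8 for the interaction at 100 ng/mL. With no filter the thapsigargin response had 529 genes at 10 ng/mL and 299 at 100 ng/mL (1.51% of those tested, 6 of the 8). In vehicle 10 against 0 and 100 against 10 ng/mL had 623 and 638. With thapsigargin 10 against 0 and 100 against 10 ng/mL had 1 and 1646 (8.31% and 2 of the 8 in the latter). At 100 against 0 ng/mL with thapsigargin 3 of the 8 then passed, where 11.3% of all genes tested did. The interactions had 1 gene at 10 ng/mL and 86 at 100 ng/mL (0.416% of those tested, 2 of the 8).

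With all 6 groups in 1 fit the thapsigargin response had 676 genes at 10 ng/mL and 941 at 100 ng/mL (6.26% of those tested, 5 of the 8). In vehicle 10 against 0 and 100 against 10 ng/mL had 3 and 628. With thapsigargin 100 against 0 and 100 against 10 ng/mL had 2641 and 2054 (17.6% and 13.7%, with 2 of the 8 in each). The interactions had 1 gene at 10 ng/mL and 35 at 100 ng/mL (0.233% of those tested, 2 of the 8).

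The replicate block gave 3571, 3620 and 4 genes for thapsigargin at 0, 10 and 100 ng/mL, with 7, 8 and 2 of the 8 genes. These totals were 24.8%, 24.8% and 0.0277% of the genes tested. Beyond the genes of the main test, NUPR1 rose at 0 and 10 ng/mL (adjusted p = 0.00381 and 0.00445). ATF5 fell at 10 ng/mL (adjusted p = 0.00498). In vehicle the block gave 124 genes at 10 against 0, 750 at 100 against 0 (5.19% of those tested, 1 of the 8) and 1224 at 100 against 10 ng/mL. With thapsigargin it gave 564 at 10 against 0 (1 of the 8), 1390 at 100 against 0 (TRIB3 of the 8, adjusted p = 0.00528, in place of DDIT3 at 0.0115) and 384 at 100 against 10 ng/mL (0 of the 8), which is 3.89%, 9.68% and 2.65% of the genes tested. For the interactions it gave 1 and 3 genes. Only at 10 against 0 ng/mL with thapsigargin did every pair of same-numbered libraries correlate over 0.1.

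Leaving out 1 library at a time gave from 731 to 1901 genes for thapsigargin without doxycycline (6 of the 8 in each fit, lowest without replicate 1 of the vehicle libraries), from 28 to 494 at 10 ng/mL (3 to 6 of the 8, lowest without replicate 2 in vehicle) and from 4 to 2568 at 100 ng/mL (2 to 6). These totals were 5.02% to 13%, 0.188% to 3.32% and 0.0273% to 17.6% of the genes tested. In vehicle such fits gave 0 to 2743 at 10 against 0 (0 to 1 of the 8), 915 to 1397 at 100 against 0 (0 to 2) and 0 to 496 at 100 against 10 ng/mL (0 without replicate 3 at 100 ng/mL). The first 2 of these ranges were 0% to 18.8% and 6.27% to 9.56% of the genes tested. With thapsigargin they gave 0 genes at 10 against 0, 763 to 3950 at 100 against 0 (5.23% to 27.2% of those tested, 0 to 5 of the 8) and 42 to 2712 at 100 against 10 ng/mL (0.285% to 18.4%, 0 to 2 of the 8), lowest in both of the latter without replicate 2 at 100 ng/mL. The interaction at 10 ng/mL had 0 genes and that at 100 ng/mL 2 to 1286 (0.0134% to 8.6% of those tested, 0 to 3 of the 8). Where an arm then held 2 libraries, the spread was pooled over the fit, so that arm was assumed to vary like the other groups.

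The sign of a member changed in 39 of 624 such fits, none of them for DDIT3 or CHAC1. The ranges were -0.088 to 0.25 for ATF5 with thapsigargin at 100 ng/mL. At 10 against 0 ng/mL with thapsigargin they were -0.023 to 0.18 for CEBPB, -0.44 to 0.54 for TRIB3, -0.14 to 0.10 for CEBPG and -0.025 to 0.23 for ATF5. At 100 against 0 ng/mL with thapsigargin they were -0.091 to 0.12 for CEBPG and -0.24 to 0.0064 for ATF4, and at 100 against 10 ng/mL -0.047 to 0.16 for CEBPG and -0.12 to 0.73 for NUPR1. For the interaction at 10 ng/mL they were -0.16 to 0.11 for ATF5, -0.40 to 0.18 for NUPR1, -0.10 to 0.15 for CEBPG, -0.25 to 0.020 for CEBPB and -0.84 to 0.16 for TRIB3, and for that at 100 ng/mL -0.76 to 0.078 for NUPR1.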
